A study of Mus musculus with 12 samples.

Results

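The mitosis genes described here are 37 genes whose products carry a cell through mitosis: CDK1 and its cyclins, the mitotic kinases, the spindle assembly checkpoint, the kinetochore, the spindle motors and the machinery of cytokinesis. They were taken by gene name from a table of 54532 mouse genes, and all 37 were among the 14424 genes with enough reads to be tested. RNA was sequenced from 12 libraries of ATDC5 cells, a mouse chondrogenic line used as a culture model of cartilage formation, given in the labels as WT and as cartilage progenitors. Cells were held for 10 min at 37 °C, the temperature at which all groups were grown and the control here, at 40 °C or at 44 °C, with 4 libraries in each group. The design text calls the 4 libraries of a group biological replicates, and the series addresses how temperature acts on the growth of chondrocytes. The interval between heating and RNA extraction is not stated in the sources used here, and neither is the cell cycle phase of the cultures. All 3 groups come from 1 cell line, so the values hold for that line.

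At the start of mitosis the kinase CDK1 pairs with cyclin B, chromosomes condense, and microtubules of the spindle attach to the kinetochores that form on each centromere. The spindle assembly checkpoint holds back the anaphase-promoting complex, a ubiquitin ligase activated by CDC20, until every chromosome is attached. The ligase then marks cyclin B and securin for destruction, sister chromatids separate, and the central spindle and a contractile ring divide the cell. The mRNAs of many of these genes are made mainly in late S and G2 phase. Their promoters often carry a CCAAT box, bound by the factor NF-Y, and a cell cycle genes homology region (CHR), bound by MuvB complexes that include the DREAM repressor and the activators B-MYB and FOXM1.

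Because the genes of this group share promoter elements, the 110 bases upstream of the annotated start are shown for the 6 mitosis genes with the smallest p in any comparison below. The sequences are those of RefSeq on GRCm38.p6, read 5′ to 3′ on the strand of the gene, and all bases lie before the RefSeq start. The gene spans deposited with the counts can begin elsewhere. There Bub3 begins at 131560222, so its whole stretch lies inside that span. On the minus strand, Cdk1 begins at 69352938 and Cdc20 at 118437352, so the bases nearest the RefSeq start lie inside their spans. Capitals mark TTTGAA or its reverse complement TTCAAA (the CHR) and CCAAT or its reverse complement ATTGG (the CCAAT box). The stretches are chr10:69352913-69353022, minus strand for Cdk1 and chr11:99024190-99024299, minus strand for Top2a. They are chr2:69206214-69206323, minus strand for Spc25 and chr4:118437344-118437453, minus strand for Cdc20. They are chr7:131560260-131560369, plus strand for the first of 2 starts of Bub3 and chr9:70421555-70421664, minus strand for Ccnb2.
Cdk1: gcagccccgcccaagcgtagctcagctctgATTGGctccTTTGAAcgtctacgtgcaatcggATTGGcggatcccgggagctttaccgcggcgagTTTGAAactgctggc
Top2a: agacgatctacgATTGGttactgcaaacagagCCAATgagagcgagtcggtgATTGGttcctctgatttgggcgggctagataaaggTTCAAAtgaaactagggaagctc
Spc25: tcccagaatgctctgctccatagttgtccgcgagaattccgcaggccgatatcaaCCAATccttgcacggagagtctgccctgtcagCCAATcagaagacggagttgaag
Cdc20: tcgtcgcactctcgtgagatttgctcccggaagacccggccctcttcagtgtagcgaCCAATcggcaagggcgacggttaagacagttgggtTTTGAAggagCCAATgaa
Bub3: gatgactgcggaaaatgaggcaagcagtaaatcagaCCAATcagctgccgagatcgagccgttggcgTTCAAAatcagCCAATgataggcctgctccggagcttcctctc
Ccnb2: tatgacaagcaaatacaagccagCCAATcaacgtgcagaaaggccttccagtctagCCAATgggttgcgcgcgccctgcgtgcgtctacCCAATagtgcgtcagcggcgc

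Each of the 6 stretches held at least 1 CCAAT box, and those of Cdk1, Top2a, Cdc20 and Bub3 also held a CHR. With the base next to the start counted as -1, the CHR of Cdk1 began at -71 and -15, that of Cdc20 at -18 and that of Bub3 at -43. In Spc25 and Ccnb2 a CHR lay just past the start, beginning at base 25 and base 5. Promoters from 250 bases before to 50 after the start were found for 32 of the 37 genes (35 promoters, since Bub3, Ect2 and Prc1 have 2 each). TTTGAA, on either strand, was in 28 of these 35 promoters (80.0%), against 17.9% of all 32851 promoters in the table. CCAAT, on either strand, was in 28 of the 35 (80.0%), against 37.4% of all promoters. Both motifs occurred together in 71.4% of the promoters of mitosis genes and in 6.95% of all promoters, or 4.83% of those of tested genes. The letters of the CHR and of the CCAAT box can overlap by at most 1 base. TTCCCGCC, a motif of E2F factors, was searched on both strands and was in 0 of the 35 promoters, against 2.19% of all and 4.01% of those of tested genes. With 35 promoters, 0 is near these shares. Other forms of the E2F site were not searched.

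A CCAAT box that began between 25 and 45 bases before a CHR was found in 17 of the 35 promoters (48.6%), against 0.773% of all promoters. This spacing was chosen after the positions were seen, so the share is a description. The gap was 33 bases in Cdk1, 35 in Cdc20 and Top2a, 31 in Bub3 and 25 in Ccnb2. Both motifs were in 22 of the 32 mitosis genes with a promoter there, among them all 8 that passed a test below. Counted alone, the CHR was in 8 of these 8 genes and in 17 of the 24 others, and so was the CCAAT box. The only CHR of Spc25, Bub1b and Cenpa lay past the start, at base 25, 41 and 17. The spaced pair was in 5 of the 8 genes and in 9 of the 24 others. Whether the motifs go with passing was not tested. The 8 genes that passed include 4 that were higher and 4 that were lower at 44 °C. A match is a match of letters and does not show binding.

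Levels are given in CPM, the usual depth-scaled read count, here the deposited counts scaled to TMM library sizes. The 12 libraries held between 16269026 and 19506705 counts each, and the 37 genes together took between 1.07% and 1.15% of them. The lowest count of any of the 37 genes in any library was 1173 (Nuf2) and the highest 32773 (Top2a). As a check of the heating, Hspb1, a small heat shock protein, averaged 221 ± 22.8 CPM at 44 °C and 71.3 ± 7.77 CPM at 37 °C (n = 4 each, SD). Hspa1b, an inducible HSP70 whose reads may be shared with its near-copy Hspa1a, averaged 18.8 ± 1.21 CPM at 44 °C and 8.68 ± 0.336 CPM at 37 °C. Both come from a list of 5 heat shock genes. In the test described below, 3 of the 5 were higher at 44 °C than at 37 °C. The other 2, Hsph1 and Dnajb1, did not pass, and the lowest log2 fold change of the 5 was 0.003. At 40 °C against 37 °C, 0 of the 5 passed. Of the 8 cartilage markers, Sox9 and Runx2 were at 54.2 and 62.9 CPM at 37 °C. The cartilage matrix genes Col2a1 and Acan were near 0, at 1.21 and 2.13 CPM. On library totals, Sox5 averaged 8.21 and Matn3 1.34 CPM at 37 °C, while Sox6 had 9 and Comp 15 counts over all libraries. Of the 4 blood markers, which summed to 36.8 to 51.9 CPM at 37 °C, Ptprc had 1 count over all libraries and Adgre1 had 0, while Cd68 averaged 31.7 and Cd14 11.2 CPM. Of the 4 epithelial markers, which summed to 28.2 to 43.9 CPM at 37 °C, Krt5 had 0 counts and Krt14 averaged 33.8 CPM. Myod1 of muscle and Adipoq of fat had 0 counts.

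Per kilobase of deposited gene length, a scale that allows for length when genes are compared, the mitosis genes covered a wide range at 37 °C. The lengths of the mRNAs made in these cells are not known here and may differ from the deposited ones. The order of genes is therefore approximate, and library ranges do not cover this limit. The highest were Cdc20 with 193 ± 15.9, Ube2c with 169 ± 6.46 and Top2a with 167 ± 4.64 CPM per kilobase (SD, n = 4), and the library ranges of these 3 neighbours overlapped. The lowest were Mad2l1 with 11.8 ± 0.619 and Nuf2 with 11.7 ± 0.666 CPM per kilobase, which also overlapped. Of the 36 pairs of neighbours in this order, 9 had library ranges that did not overlap: Top2a and Tpx2, Tpx2 and Ccna2, Ccnb1 and Plk1, Anln and Racgap1, Racgap1 and Ect2, Aurkb and Cdk1, Hmmr and Kif11, Kif2c and Cdca8, and Bub3 and Mad2l1. At 44 °C the first place was taken by Top2a, with 202 ± 7.54 CPM per kilobase, while Cdc20 stood at 150.5 ± 14.1.

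**Figure D1:**
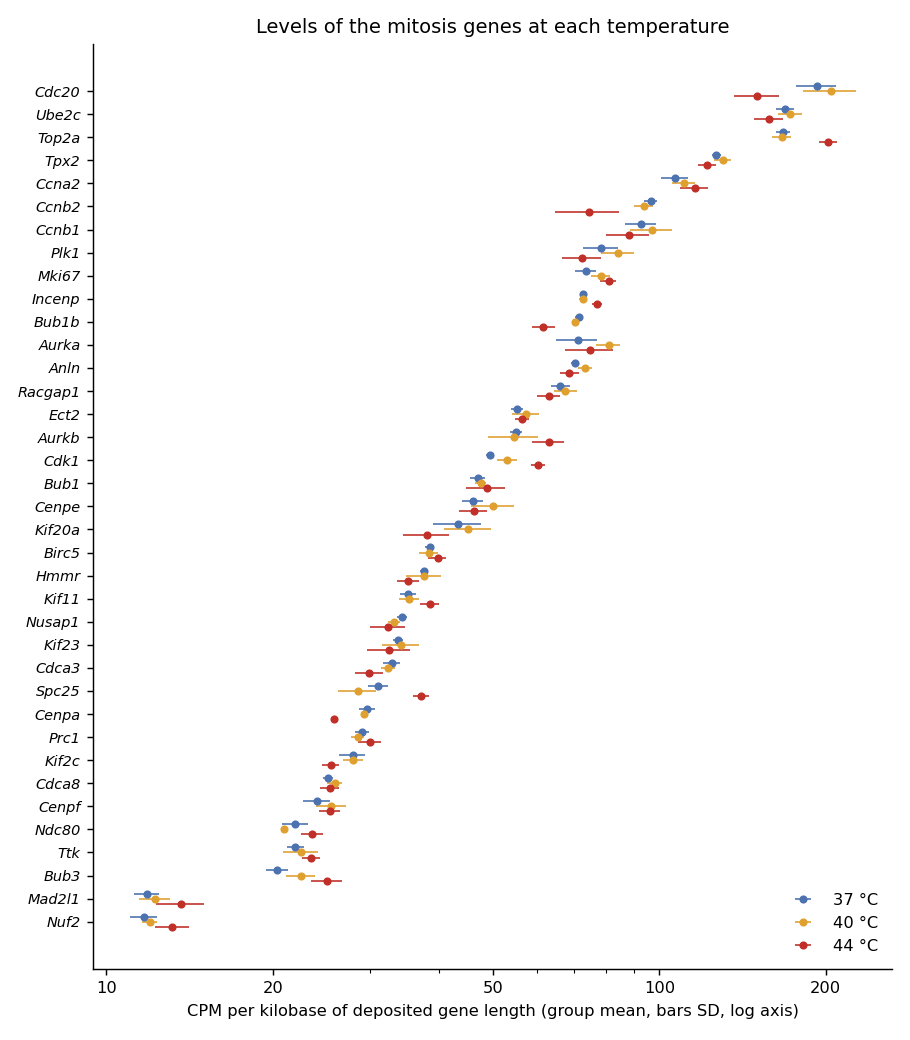
Level of each of the 37 mitosis genes at 37 °C, 40 °C and 44 °C, in CPM per kilobase of deposited gene length on a log axis (points: mean of 4 libraries, bars: SD). The order is that of the 37 °C means, from Cdc20 with 193 to Nuf2 with 11.7 CPM per kilobase, and Top2a with 202 is the highest at 44 °C.

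At 44 °C against 37 °C, 8 of the 37 mitosis genes passed the test (edgeR's quasi-likelihood F-test, two-sided, Benjamini-Hochberg adjusted over all genes tested, threshold 0.05). Cdk1, Bub3, Top2a and Spc25 rose and Ccnb2, Cdc20, Bub1b and Cenpa fell, each by 1.15- to 1.29-fold. That is 10.8% of the 37 genes in each direction, against 6.58% of all tested genes called higher and 7.11% called lower. With 4 genes in each direction, these shares are too close to those of all genes to be read as a result about the group. The median log2 fold change of the 37 genes was 0.03, against -0.0003 for all genes. The other 29 genes had log2 fold changes between -0.19 (Kif20a) and 0.21 (Mad2l1), of which 17 were above 0 and 12 below. RNA came from whole cultures, so fewer cells in mitosis and less RNA per mitotic cell cannot be told apart. The counts are not stated to use the strand, so reads of a gene that overlaps another cannot be told apart either, which touches 13 of the 37 genes on the opposite strand.

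Groups did not overlap for 14 of the 37 genes in this comparison. The lowest 44 °C library exceeded the highest 37 °C library for Mki67, Cdk1, Bub3, Aurkb, Top2a, Kif11, Incenp and Spc25, against 8.62% of all tested genes. The highest 44 °C library was under the lowest 37 °C library for Ccnb2, Bub1b, Cdc20, Cenpa, Hmmr and Cdca3, against 9.13% of all tested genes. Each of the 8 calls was kept in all 19 other fits. Without 44 °C replicate 1, however, 9 genes rose instead of 4, the added ones being Mki67, Ccna2, Kif11, Nuf2 and Mad2l1. The number called among all genes was 1975, and it was 3355 without 44 °C replicate 1 and between 979 and 1156 without 37 °C replicate 1, 2 or 4 or 44 °C replicate 2 or 4.

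**Figure D2:**
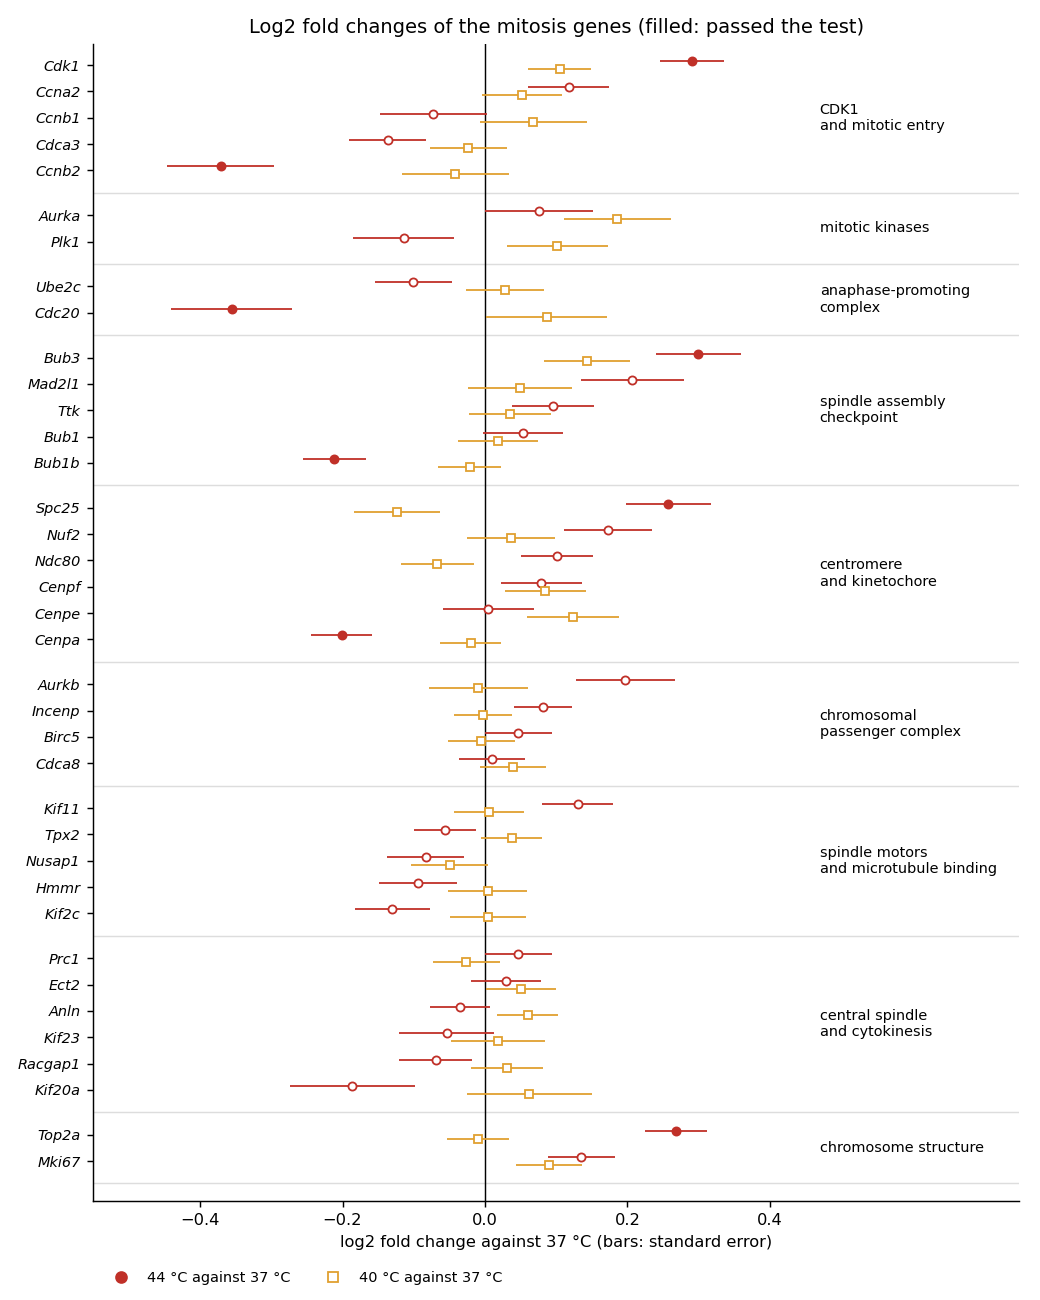
Log2 fold changes of the 37 mitosis genes by role, with standard errors, for 44 °C against 37 °C (circles) and 40 °C against 37 °C (squares). Filled symbols passed the test: 4 genes higher and 4 lower at 44 °C, and 0 at 40 °C.

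Cdk1 (ENSMUSG00000019942, mm10 chr10:69335146-69352938, minus strand), the kinase that drives entry into mitosis, was at 239, 245, 246 and 244 CPM in the 4 libraries at 37 °C, 246, 265, 269 and 267 CPM at 40 °C, and 286, 297, 304 and 305 CPM at 44 °C. All 44 °C libraries were above all others, and 3 of the 4 libraries at 40 °C were above those at 37 °C. It was 1.22-fold higher at 44 °C than at 37 °C (log2 fold change 0.29 ± 0.04 SE, adjusted p = 0.00118).

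Ccnb2 (ENSMUSG00000032218, chr9:70407692-70421547, minus strand), a B-type cyclin that activates CDK1, was at 153, 144, 144 and 149 CPM at 37 °C, 151, 137, 141 and 145 CPM at 40 °C, and 129, 100.4, 126 and 102 CPM at 44 °C. Every 44 °C library was below every other library, and at 44 °C replicates 2 and 4 were lower than replicates 1 and 3. It was 1.29-fold lower at 44 °C than at 37 °C (log2 fold change -0.37 ± 0.08 SE, adjusted p = 0.00615). Ccnb1 (chr13:100778650-100786570, minus strand), the B-type cyclin that is essential in mice, was at 356, 398, 416 and 389.9 CPM at 37 °C, 396, 458, 409.7 and 372 CPM at 40 °C, and 323, 388, 375 and 398 CPM at 44 °C. Its groups overlapped and it did not pass the test (log2 fold change -0.07 ± 0.08 SE, adjusted p = 0.549). Ccna2, cyclin A2, which acts in S and G2 phase, had a log2 fold change of 0.12 ± 0.06 SE (adjusted p = 0.172). Cdca3, which in Xenopus takes part in the turnover of the CDK1 inhibitor Wee1, had a log2 fold change of -0.14 ± 0.05 SE (adjusted p = 0.104).

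Within each library, the balance of 2 mRNAs can be read as the log2 ratio of their counts, which no scaling between libraries can change. The pairs below were chosen after the values were seen, so the ratios are descriptions without a test. Cdk1 rose and Ccnb2 fell without overlap, so the gap in their ratio follows from that. The log2 ratio of Cdk1 to Ccnb2 averaged 1.39 ± 0.21 at 44 °C and 0.72 ± 0.06 at 37 °C (n = 4 each, SD), with no overlap. That of Cdk1 to Ccnb1 averaged -0.31 ± 0.10 at 44 °C and -0.68 ± 0.07 at 37 °C, again with no overlap. The ratio of Ccna2 to Ccnb2 averaged 2.06 ± 0.26 at 44 °C and 1.56 ± 0.12 at 37 °C, with no overlap. Ccnb1 to Ccnb2 averaged 1.70 ± 0.31 at 44 °C and 1.40 ± 0.13 at 37 °C, and these groups overlapped.

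Among the mitotic kinases, Plk1, the polo-like kinase that acts from mitotic entry to cytokinesis, was at 156, 176, 185 and 173 CPM at 37 °C, 185, 200.4, 186 and 169 CPM at 40 °C, and 142, 171, 165 and 159 CPM at 44 °C. The groups overlapped, and the log2 fold change for 44 °C against 37 °C was -0.11 ± 0.07 SE (adjusted p = 0.294). Aurka, the kinase of the spindle poles, had a log2 fold change of 0.08 ± 0.08 SE (adjusted p = 0.532). No gene of this pair passed the test.

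The anaphase-promoting complex was represented by its activator and by its ubiquitin-conjugating enzyme. Cdc20 (ENSMUSG00000006398, chr4:118432901-118437352, minus strand), the activator, was at 318, 372, 387 and 362 CPM at 37 °C, 379.8, 440.0, 367 and 341 CPM at 40 °C, and 254, 307, 263 and 299.9 CPM at 44 °C. The 44 °C libraries lay below all others, and at 40 °C 1 library reached 440.0 CPM. It was 1.28-fold lower at 44 °C than at 37 °C (log2 fold change -0.36 ± 0.08 SE, adjusted p = 0.0145). Cdc20 overlaps Elovl1 on the opposite strand by 53 bases. Ube2c, the conjugating enzyme, had a log2 fold change of -0.10 ± 0.05 SE (adjusted p = 0.223).

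The spindle assembly checkpoint genes moved in both directions. Bub3 (ENSMUSG00000066979, chr7:131560222-131571895, plus strand), whose product brings BUB1 and BUBR1 to kinetochores, was at 138, 145, 151 and 137 CPM at 37 °C, 151, 169, 162 and 148 CPM at 40 °C, and 161, 189, 175 and 176 CPM at 44 °C. The 44 °C libraries were above all those at 37 °C but overlapped those at 40 °C. Its span overlaps that of Fgfr2 on the opposite strand by 11674 bases, and Fgfr2 itself had a mean of 1.67 counts per library. Bub3 was 1.23-fold higher at 44 °C than at 37 °C (log2 fold change 0.30 ± 0.06 SE, adjusted p = 0.00560). Bub1b (ENSMUSG00000040084, chr2:118598211-118641591, plus strand), which encodes the checkpoint protein BUBR1, was at 311, 302, 306 and 303 CPM at 37 °C, 306, 297, 303 and 298 CPM at 40 °C, and 269, 252, 279 and 254 CPM at 44 °C. All libraries at 44 °C were below all others. It was 1.16-fold lower at 44 °C than at 37 °C (log2 fold change -0.21 ± 0.04 SE, adjusted p = 0.00705).

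Bub1 (chr2:127801122-127831865, minus strand), a checkpoint kinase of the kinetochore, was at 208, 199.5, 199 and 211 CPM at 37 °C, 214, 206, 203 and 205 CPM at 40 °C, and 227, 197, 227 and 197 CPM at 44 °C. At 44 °C replicates 1 and 3 lay above the 37 °C libraries and replicates 2 and 4 below them, the same split as for Ccnb2 and Bub1b. The log2 fold change was 0.05 ± 0.06 SE (adjusted p = 0.554). Mad2l1, whose product MAD2 binds and holds CDC20, was at 92.2, 100.1, 105 and 99.6 CPM at 37 °C, 105, 111, 97.9 and 96.5 CPM at 40 °C, and 99.5, 119.6, 113 and 126 CPM at 44 °C. Its 44 °C replicate 1 lay within the 37 °C libraries and the other 3 lay above them. It did not pass (log2 fold change 0.21 ± 0.07 SE, adjusted p = 0.0706), but did with DESeq2 (adjusted p = 0.0476), and it passed when 44 °C replicate 1 was left out (adjusted p = 0.01001). Ttk, the MPS1 kinase at the head of the checkpoint, had a log2 fold change of 0.10 ± 0.06 SE (adjusted p = 0.272).

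MAD2, BUBR1, BUB3 and CDC20 form the mitotic checkpoint complex that inhibits the anaphase-promoting complex. Of the 4 mRNAs, that of Bub3 rose, those of Bub1b and Cdc20 fell, and that of Mad2l1 did not pass the test. The log2 ratio of Bub3 to Bub1b averaged -0.59 ± 0.14 at 44 °C and -1.10 ± 0.07 at 37 °C (n = 4 each, SD). Bub3 to Cdc20 averaged -0.68 ± 0.07 at 44 °C and -1.33 ± 0.09 at 37 °C. Mad2l1 to Cdc20 averaged -1.30 ± 0.07 at 44 °C and -1.86 ± 0.05 at 37 °C. None of these 3 ratios overlapped between the groups, whereas Bub1b to Cdc20, at -0.09 ± 0.20 at 44 °C and -0.23 ± 0.14 at 37 °C, did. These ratios too were chosen after the values were seen. Bub3 rose while Bub1b and Cdc20 fell without overlap, so the gaps of Bub3 to Bub1b and to Cdc20 follow from that.

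**Figure D3:**
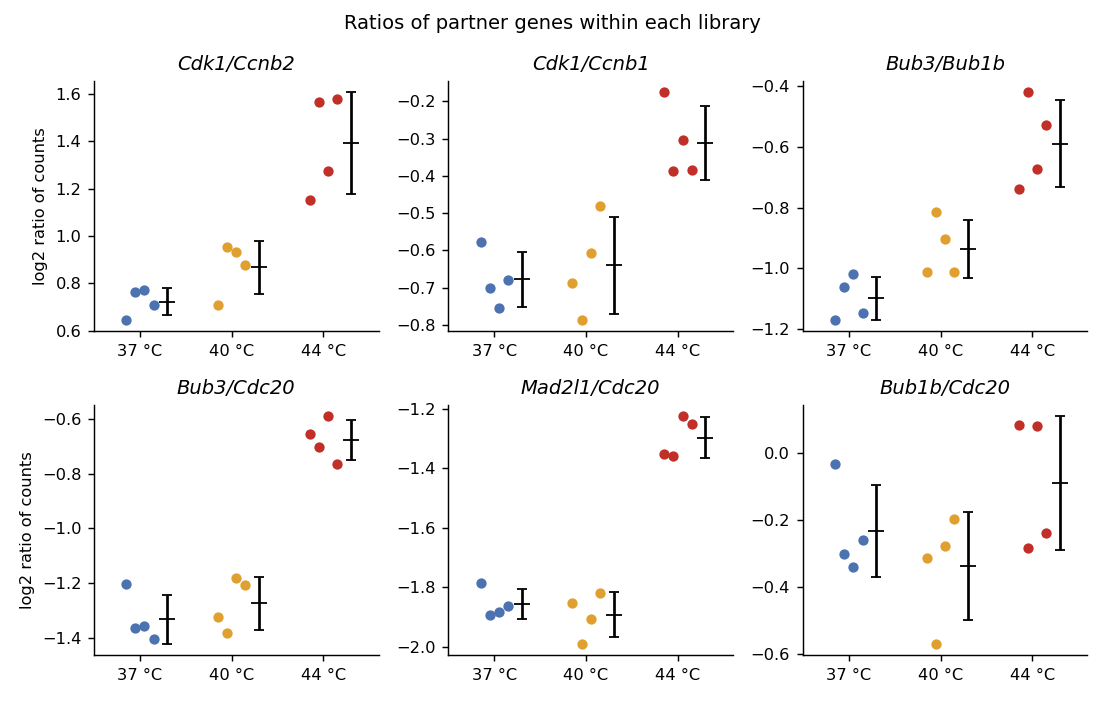
Log2 ratio of the counts of 2 genes within each library, by temperature (points: libraries, bars: mean ± SD of 4). Cdk1 over Ccnb2 and Ccnb1, Bub3 over Bub1b and Cdc20, and Mad2l1 over Cdc20 do not overlap between 44 °C and 37 °C, while Bub1b over Cdc20 does. The pairs were chosen after the values were seen. For Cdk1 over Ccnb2 and Bub3 over Bub1b and Cdc20, the gap follows from the opposite changes of the single genes.

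At the centromere and kinetochore, 1 gene rose and 1 fell among 6. Spc25 (ENSMUSG00000005233, chr2:69193895-69206194, minus strand), a subunit of the NDC80 complex that grips microtubules, was at 104, 98.1, 93.9 and 99.4 CPM at 37 °C, 93.1, 81.7, 98.9 and 89.3 CPM at 40 °C, and 122, 113, 118 and 119 CPM at 44 °C. Every 44 °C library was above every other, and the lowest library was at 40 °C. It was 1.195-fold higher at 44 °C than at 37 °C (log2 fold change 0.26 ± 0.06 SE, adjusted p = 0.0126). Its partners in the complex, Nuf2 and Ndc80, had log2 fold changes of 0.17 ± 0.06 SE (adjusted p = 0.0734) and 0.10 ± 0.05 SE (adjusted p = 0.193), and did not pass. The log2 ratio of Spc25 to Ndc80 averaged -0.37 ± 0.07 at 44 °C and -0.53 ± 0.07 at 37 °C, without overlap, and that of Spc25 to Nuf2 averaged 0.50 ± 0.14 at 44 °C and 0.42 ± 0.12 at 37 °C, with overlap (n = 4 each, SD).

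Cenpa (ENSMUSG00000029177, chr5:30666777-30674830, plus strand), the histone H3 variant that marks centromeres, was at 165, 179, 177 and 173 CPM at 37 °C, 173, 169.8, 172 and 169.6 CPM at 40 °C, and 151, 149.9, 149 and 153 CPM at 44 °C. The 4 libraries at 44 °C were close to each other and below all the others. It was 1.15-fold lower at 44 °C than at 37 °C (log2 fold change -0.20 ± 0.04 SE, adjusted p = 0.00784). Cenpe, a kinesin that moves chromosomes to the spindle equator, and Cenpf, a large kinetochore protein, had log2 fold changes of 0.00 ± 0.06 SE (adjusted p = 0.971) and 0.08 ± 0.06 SE (adjusted p = 0.372).

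None of the 4 genes of the chromosomal passenger complex, which corrects faulty attachments and then directs cytokinesis, passed the test. Aurkb, its kinase, was at 165, 161, 157 and 166 CPM at 37 °C, 152, 144, 167 and 181 CPM at 40 °C, and 202, 185, 184 and 172 CPM at 44 °C. All 44 °C libraries were above all those at 37 °C, while the 40 °C libraries were spread over both. The log2 fold change for 44 °C against 37 °C was 0.20 ± 0.07 SE (adjusted p = 0.0713). It passed in 4 of the 19 other fits, with DESeq2 among them (adjusted p = 0.0486). The scaffold Incenp, the survivin gene Birc5 and the borealin gene Cdca8 had log2 fold changes of 0.08 ± 0.04 SE, 0.05 ± 0.05 SE and 0.01 ± 0.05 SE.

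The spindle and cytokinesis genes did not pass the test at 44 °C in any case (0 of 11). The adjusted p of these 11 genes lay between 0.0904 (Kif11) and 0.722 (Ect2) in edgeR's quasi-likelihood test, and 2 of them had an unadjusted p under 0.05. DESeq2 called 1 of them, Kif11 (adjusted p = 0.0475). Kif11, the kinesin that pushes spindle poles apart, had a log2 fold change of 0.13 ± 0.05 SE, and Kif2c, which takes microtubule ends apart, had one of -0.13 ± 0.05 SE (adjusted p = 0.111). Of the microtubule-binding proteins, Tpx2, the activator of Aurora A, was at -0.06 ± 0.04 SE, Hmmr at -0.09 ± 0.06 SE and Nusap1 at -0.08 ± 0.05 SE. Kif20a, a kinesin of the central spindle, had the lowest value among the genes that did not pass, -0.19 ± 0.09 SE (adjusted p = 0.165). It overlaps Cdc23 on the opposite strand by 2315 bases. Kif23 and Racgap1, which together form centralspindlin, were at -0.05 ± 0.07 SE and -0.07 ± 0.05 SE. The RhoA activator Ect2, the ring scaffold Anln and the microtubule bundler Prc1 were at 0.03 ± 0.05 SE, -0.03 ± 0.04 SE and 0.05 ± 0.05 SE.

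Of the 2 genes of chromosome structure, 1 rose. Top2a (ENSMUSG00000020914, chr11:98992943-99024189, minus strand), the topoisomerase that untangles sister DNA, was at 1547, 1469, 1478 and 1544 CPM at 37 °C, 1458, 1442, 1533 and 1563 CPM at 40 °C, and 1793, 1786, 1919 and 1773 CPM at 44 °C. The 44 °C libraries were above all others, and those at 40 °C overlapped those at 37 °C. It was 1.204-fold higher at 44 °C than at 37 °C (log2 fold change 0.27 ± 0.04 SE, adjusted p = 0.00170). Mki67, which coats mitotic chromosomes and is the common marker of proliferating cells, was at 761, 722, 706 and 775 CPM at 37 °C, 799, 827, 756 and 774 CPM at 40 °C, and 800.4, 808, 854 and 795 CPM at 44 °C. Its 44 °C libraries were above those at 37 °C, but it did not pass the test (log2 fold change 0.14 ± 0.05 SE, adjusted p = 0.0671). It passed with DESeq2 (adjusted p = 0.0273), and it also passed when 44 °C replicate 1 was left out (adjusted p = 0.0480). The log2 ratio of Top2a to Cenpa averaged 3.59 ± 0.06 at 44 °C and 3.12 ± 0.09 at 37 °C (n = 4 each, SD), with no overlap. This pair too was chosen after the values were seen. Top2a rose and Cenpa fell without overlap, so the gap in their ratio follows from that.

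**Figure D4:**
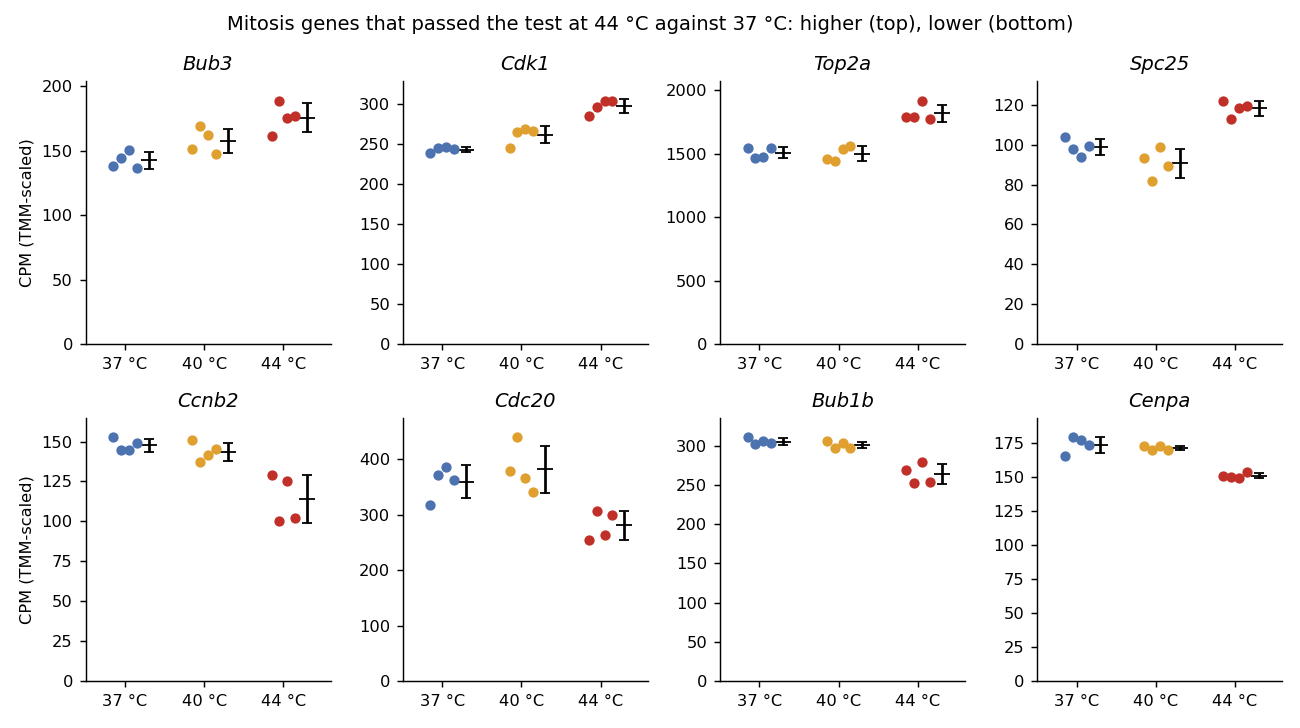
CPM of the 8 mitosis genes that passed the test at 44 °C against 37 °C, by temperature (points: libraries, bars: mean ± SD of 4, axis from 0). Bub3, Cdk1, Top2a and Spc25 (top) are higher at 44 °C, Ccnb2, Cdc20, Bub1b and Cenpa (bottom) lower, and the 40 °C libraries lie near those at 37 °C in most panels.

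At 40 °C against 37 °C, none of the 37 genes passed edgeR's quasi-likelihood test, and 0% of all genes were called in either direction. With an unadjusted p under 0.05 there were 3 of the 37 genes and 752 of all 14424 tested genes. DESeq2 also called 0 genes, and 909 of the 28741 genes in that fit had an unadjusted p under 0.05. The log2 fold changes of the 37 genes lay between -0.12 (Spc25) and 0.19 (Aurka), 25 of them above 0, with a median of 0.03. Aurka, at 205 ± 10.2 CPM at 40 °C and 180.2 ± 15.4 CPM at 37 °C (n = 4 each, SD), had an adjusted p of 0.823. The 40 °C libraries all lay above those at 37 °C for 1 of the 37 genes, Anln, against 1.61% of all genes, and all below for 0, against 2.23% of all genes, which is near the background. The values of Cdk1 and Bub3 at 40 °C stood between those at 37 °C and 44 °C, with log2 fold changes against 37 °C of 0.10 ± 0.04 SE and 0.14 ± 0.06 SE, and neither passed (adjusted p = 0.823 for both). Those of Cdc20 and Spc25 at 40 °C were 0.09 ± 0.08 SE and -0.12 ± 0.06 SE, on the other side of 37 °C from their values at 44 °C.

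At 44 °C against 40 °C, a comparison that shares its 44 °C libraries with the first, 3 of the 37 genes rose and 4 fell, against 1.88% of all genes called higher and 3.14% called lower. Spc25 rose by a log2 fold change of 0.38 ± 0.06 SE (adjusted p = 0.00206), Top2a by 0.28 ± 0.04 SE (adjusted p = 0.00206) and Cdk1 by 0.19 ± 0.04 SE (adjusted p = 0.0261). Cdc20 had a log2 fold change of -0.44 ± 0.08 SE (adjusted p = 0.00704), Ccnb2 -0.33 ± 0.08 SE (adjusted p = 0.0203), Bub1b -0.19 ± 0.04 SE (adjusted p = 0.0220) and Cenpa -0.18 ± 0.04 SE (adjusted p = 0.0239). Bub3, at 0.16 ± 0.06 SE, did not pass (adjusted p = 0.155). Top2a, Cdc20 and Spc25 passed in all 19 other fits, Ccnb2 in 14, Bub1b and Cenpa in 12 and Cdk1 in 11. Without 40 °C replicate 1 or 44 °C replicate 2, 1 gene fell instead of 4, and without 40 °C replicate 3 or 4 or 44 °C replicate 4 there were 2. Among all genes 271 were called higher and 453 lower, and scaling by library totals gave 396 higher and 355 lower. All genes called numbered 724 in all, 1265 without 44 °C replicate 1, and between 394 and 456 without 40 °C replicate 1, 3 or 4 or 44 °C replicate 2 or 4.

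The joint test over the 3 temperatures called the same 8 of the 37 genes, against 8.21% of all genes. Without 44 °C replicate 2 there were 5 and without 44 °C replicate 1 there were 10. The number of all genes called was 1184, and it was 2125 without 44 °C replicate 1 and between 562 and 742 without 37 °C replicate 1, 2 or 4 or 44 °C replicate 2, 3 or 4. Libraries of 1 temperature also differed along a shared axis, the leading component of the within-group differences over genes outside the cell cycle, which held 29.7% of that variance. On it the 44 °C replicates stood at 1.58, -1.17, 0.617 and -1.03, the same split of replicates 1 and 3 from 2 and 4 as in Ccnb2, Bub1b and Bub1. With this axis as a covariate, 10 of the 37 genes rose and 9 fell at 44 °C against 37 °C. Among all 14424 tested genes, the same fit called 2581 higher and 2453 lower. The axis was taken from the spread of these same libraries, so the counts of this fit are a description only.

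Other genes of the cell cycle were read from 11 lists with 200 genes, of which 199 were tested. At 44 °C against 37 °C, by edgeR's quasi-likelihood test, 39 of them rose and 9 fell, with a median log2 fold change of 0.09, beside 6.58% higher and 7.11% lower among all genes. None of these genes is among the 37. The lists with the most genes called higher were DNA replication (11 of 29 rose, 0 fell), condensin and cohesin (7 of 20 rose, 2 fell), and the transcription factors of mitotic genes (6 of 15 rose, 0 fell). No gene of any list passed at 40 °C against 37 °C. The count for DNA replication was between 5 and 7 without 37 °C replicate 1, 2 or 4, 40 °C replicate 3 or 44 °C replicate 3. Of the 27 genes of these lists that the naming rule took and that passed, 21 passed in all 19 other fits.

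**Figure D5:**
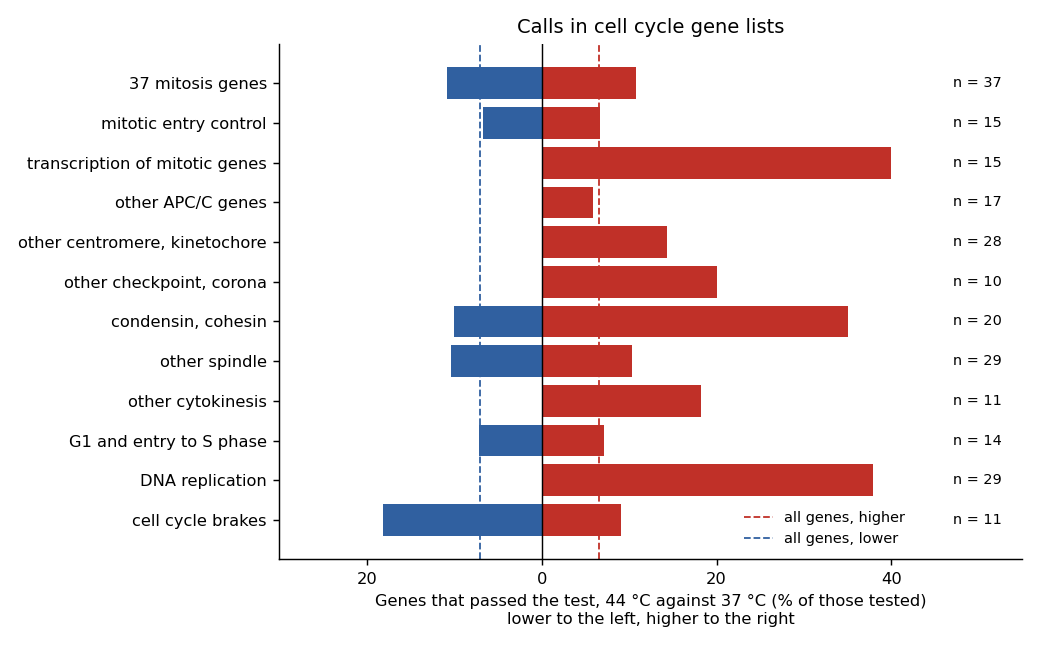
Share of tested genes called higher (right) and lower (left) at 44 °C against 37 °C, in percent, for the 37 mitosis genes and 11 other cell cycle lists, with the share among all tested genes as dashed lines (6.58% higher, 7.11% lower). DNA replication, condensin and cohesin, and the transcription of mitotic genes stand furthest to the right.

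Of the factors that transcribe mitotic genes, Mybl2, which encodes the activator B-MYB, averaged 155 ± 18.2 CPM at 44 °C and 105 ± 9.85 CPM at 37 °C (change in log2 0.56 ± 0.09 SE, adjusted p = 0.00180). Nfya, a subunit of the CCAAT-binding factor NF-Y, averaged 95.0 ± 6.09 CPM at 44 °C and 77.5 ± 4.63 CPM at 37 °C (adjusted p = 0.00891). Rbl1, the p107 pocket protein of the DREAM repressor, averaged 182 ± 6.11 CPM at 44 °C and 155 ± 10.8 CPM at 37 °C (adjusted p = 0.0121). Foxm1 did not pass, with 195 ± 11.01 CPM at 44 °C and 185 ± 4.64 CPM at 37 °C (SD, n = 4 each, adjusted p = 0.301).

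In the control of mitotic entry, 1 of 15 genes rose and 1 fell. Cdc25c, a phosphatase that activates CDK1, averaged 31.8 ± 3.25 CPM at 44 °C and 41.9 ± 2.35 CPM at 37 °C (change in log2 -0.40 ± 0.07 SE, adjusted p = 0.00379). Haspin, a histone H3 kinase of mitosis, had a log2 fold change of 0.34 ± 0.10 SE (adjusted p = 0.0384), a call lost in 10 of the 19 other fits, among them those without 37 °C replicate 1, 2 or 4, 40 °C replicate 1 or 3, or 44 °C replicate 2, 3 or 4. Wee1, which inhibits CDK1, averaged 51.3 ± 2.58 CPM at 44 °C and 54.3 ± 4.14 CPM at 37 °C and did not pass (adjusted p = 0.510). Fbxo5, whose product EMI1 inhibits the anaphase-promoting complex, averaged 104 ± 6.74 CPM at 44 °C and 76.9 ± 2.59 CPM at 37 °C (change in log2 0.43 ± 0.06 SE, adjusted p = 0.000632). It was the only one of 17 other genes of that complex and its regulators to pass.

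At the checkpoint and the outer kinetochore, 2 of 10 genes rose and 0 fell. They were Zw10, with 72.9 ± 7.93 CPM at 44 °C and 52.4 ± 4.59 CPM at 37 °C (change in log2 0.48 ± 0.08 SE, adjusted p = 0.00235), and Kntc1, with 172 ± 3.99 CPM at 44 °C and 150.5 ± 3.24 CPM at 37 °C (change in log2 0.19 ± 0.04 SE, adjusted p = 0.0114). Their products, ZW10 and ROD, are subunits of 1 complex that recruits dynein to kinetochores. Among 28 other centromere and kinetochore genes 4 rose and 0 fell, among them Nsl1 of the MIS12 complex (log2 fold change 0.31 ± 0.06 SE, adjusted p = 0.00304). Cenpq, at 0.25 ± 0.06 SE, and Ska1, at 0.22 ± 0.06 SE, also rose, but lost the call in 3 and 6 of the 19 other fits. That count was 7 without 44 °C replicate 1 and 1 or 2 without 37 °C replicate 1, 2 or 4 or 44 °C replicate 2, 3 or 4.

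Of the 20 condensin and cohesin genes, 7 rose and 2 fell. Ncapg2 averaged 339.8 ± 12.2 CPM at 44 °C and 267 ± 2.03 CPM at 37 °C (adjusted p = 0.000224). Ncapd3 averaged 198 ± 15.7 CPM at 44 °C and 148 ± 2.52 CPM at 37 °C (adjusted p = 0.000430). Smc2 averaged 371 ± 16.8 CPM at 44 °C and 279.9 ± 14.1 CPM at 37 °C (adjusted p = 0.000430). The number that fell was 0 or 1 with any single library left out, except for 40 °C replicates 2 and 4. Ncapg2 and Ncapd3 are subunits of condensin II and Smc2 is an ATPase shared by both condensins. Of the spindle genes, 3 of 29 rose and 3 fell, with Knstrn (log2 fold change -0.31 ± 0.05 SE, adjusted p = 0.00132) and the spindle pole protein Aspm (-0.27 ± 0.05 SE, adjusted p = 0.00417) lower and the γ-tubulin gene Tubg1 (0.26 ± 0.06 SE, adjusted p = 0.00863) higher. The spindle genes that rose numbered 6 without 44 °C replicate 1, and 1 without 37 °C replicate 1 or 2 or 44 °C replicate 4. Of 11 other cytokinesis genes, 2 rose and 0 fell: the formin Diaph3 (log2 fold change 0.26 ± 0.05 SE) and the ESCRT subunit Tsg101 (0.22 ± 0.05 SE).

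Genes of the phases before mitosis were also read. The primase subunit Prim1 had a log2 fold change of 0.55 ± 0.10 SE (adjusted p = 0.00271) and the ribonucleotide reductase subunit Rrm1 one of 0.23 ± 0.04 SE (adjusted p = 0.00273). In the G1 list, cyclin E1 (Ccne1) averaged 41.6 ± 3.99 CPM at 44 °C and 29.0 ± 3.17 CPM at 37 °C (adjusted p = 0.00284). Cyclin D1 (Ccnd1) averaged 499 ± 34.3 CPM at 44 °C and 585 ± 48.9 CPM at 37 °C (adjusted p = 0.0381), a call lost in 10 of the 19 other fits.

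Among 11 genes that brake the cycle, 1 rose and 2 fell. The p53 target Cdkn1a, which encodes p21, averaged 99.2 ± 26.5 CPM at 44 °C and 85.7 ± 14.0 CPM at 37 °C and did not pass (adjusted p = 0.498). Cdkn2a fell, with 69.2 ± 6.26 CPM at 44 °C and 85.4 ± 5.29 CPM at 37 °C (adjusted p = 0.0141). Cdkn2b (log2 fold change -0.44 ± 0.14 SE, adjusted p = 0.0496) and Ccng1 (0.23 ± 0.06 SE, adjusted p = 0.0274) passed but lost the call in 11 and 6 of the 19 other fits.

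Markers of other cell types were summed beside these results, on library totals. The 4 endothelial markers together were at 4.03 to 5.91 CPM at 44 °C and 2.19 to 3.30 CPM at 37 °C, and 2 of the 3 that were tested, Pecam1 and Cdh5, rose, with Pecam1 at 1.85 CPM at 44 °C and 0.837 CPM at 37 °C. Tek, with 26 counts over all libraries, went the other way, at 0.0447 CPM at 44 °C and 0.206 CPM at 37 °C. The 5 mesenchymal markers, of which Vim fell, were at 3135 to 3634 CPM at 44 °C and 3932 to 4374 CPM at 37 °C. Nearly all of that sum was Vim, with means of 3322 CPM at 44 °C and 4132 CPM at 37 °C. Pdgfra was at 18.3 and 20.5 CPM and Thy1 at 0.248 and 0.339 CPM. Col1a1, at 2.02 and 1.66 CPM, and Col1a2, at 0.324 and 0.0728 CPM, went the other way. Krt14 fell among the 4 epithelial markers. The sums of the 4 blood and 4 epithelial markers and of the 8 cartilage markers overlapped between 44 °C and 37 °C, with the blood markers at 28.1 to 40.6 CPM and the epithelial markers at 22.9 to 30.9 CPM at 44 °C. The 5 muscle and fat markers were near 0. The part of these differences in the results above was not tested.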

How the data were processed

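RNA of 12 libraries was sequenced after poly-A selection, per the labels' protocols. The deposited table holds the authors' read counts per gene, as whole numbers with no normalization. The submitters' processing notes name fastp, HISAT2 2.0.5, StringTie 1.3.3b, featureCounts 1.5.0-p3 and mm10, and strand and multi-mapping settings are not given in the sources used here.

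Groups were taken from the labels. Counts were tested in R 4.3.3 with edgeR 4.0.16 (glmQLFit and glmQLFTest, all 12 libraries in 1 fit, TMM, genes filtered by filterByExpr at 10 counts, 15 in total), and 14424 genes remained. P-values (two-sided) were adjusted by Benjamini-Hochberg over these genes, and a gene passed at an adjusted p under 0.05. Standard errors are absolute log2 fold changes over the root of the F statistic. Biological variation, as edgeR's common coefficient, was 0.102. A count of 3, taken as the floor, was 0.154 to 0.184 CPM; it covers counting error only. Pairs of libraries in a group differed beyond counting noise (chi-square per gene 2.88 to 21.4 over 18 pairs), so none was counted as a copy. Whether replicates were separate cultures is stated only as biological replicates.

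DESeq2 1.42.0, other scalings, no filter, 2-group fits, a replicate block, a within-group axis, each library left out and a threshold of 0.01 were the alternatives. The fits were tested on simulated data with the same spread for all genes and no axis shared within groups. That test does not cover libraries that share such an axis, as those here do. The 37 genes and all lists were chosen with earlier results of these data known. All 37 genes are accounted for; values per library are given for those that passed and for Cdk1, Ccnb1, Plk1, Aurkb, Bub1 and Mki67, with Mad2l1 added after its values were seen. From each other list up to 3 genes of smallest p that passed are named, plus Foxm1, Mybl2, Cdkn1a, Ccnd1 and Wee1, with Hspb1 and Hspa1b as heat controls. The values of 1 gene that this rule took are not reported here. Promoters are those of RefSeq on GRCm38.p6.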

Additional observations from a re-analysis of the deposited data

Results flagged for a closer look

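In 9 of 246 groups of 4 libraries that were looked at, 1 library stood far from the other 3, as a gap divided by the whole range of the group. Chance alone flags about 1 in 20 groups, and 7 of 111 groups of the 37 genes were among them. For Cdk1 at 40 °C the ratio was 0.835, with 246 CPM in replicate 1 and 265 to 269 CPM in the others. For Ccna2 at 44 °C it was 0.902, with 432 CPM in replicate 1 and 484 to 489 CPM in the others. For Top2a at 44 °C it was 0.8603, with 1919 CPM in replicate 3 and 1773 to 1793 CPM in the others. For Kif23 at 40 °C it was 0.897, with 300.4 CPM in replicate 2 and 257 to 262 CPM in the others. For Birc5 at 37 °C it was 0.845, with 127 CPM in replicate 1. Cdca3 at 44 °C had a ratio of 0.859, with 78.2 CPM in replicate 2 and 87.6 to 89.1 CPM in the others. Ect2 at 44 °C had a ratio of 0.887, with 290.2 CPM in replicate 1 and 308 to 309.7 CPM in the others. Outside the 37 genes, Cdc25c at 40 °C had a ratio of 0.919, with 41.6 CPM in replicate 2 and 43.6 to 43.8 CPM in the others. Prim1 at 40 °C had one of 0.853, with 103 CPM in replicate 2 and 76.1 to 79.9 CPM in the others.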

How the results depend on the processing

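At 44 °C against 37 °C, all 8 calls among the 37 genes were kept in all 19 other fits, and no called value changed sign. Of the 37 genes, 8 rose with DESeq2, 10 with a covariate for the axis shared within groups and 4 to 9 with 1 library left out, while 9 fell with the axis. Among all genes, where 1975 of 14424 were called, 949 of them higher, DESeq2 called 2557 of 13695, with 1295 higher. There were 5034 with the axis, 979 to 3355 with 1 library left out and 630 at an adjusted p under 0.01. At 40 °C against 37 °C, 2 of the 37 genes rose with the axis, and among all genes 13 were called with no filter, 595 with the axis and 0 to 1 with 1 library left out. At 44 °C against 40 °C, 8 of the 37 genes rose with the axis and 2 to 3 with 1 library left out. The number that fell there was 1 with only the 2 groups compared, 13 with the axis, 1 to 4 with 1 library left out and 1 at an adjusted p under 0.01. Among all genes, 1176 were called there with DESeq2, 334 with only the 2 groups, 3217 with the axis, 394 to 1265 with 1 library left out and 270 at an adjusted p under 0.01. In the joint test, 23 of the 37 genes were called with the axis, 5 to 10 with 1 library left out and 4 at an adjusted p under 0.01. Among all genes that test called 1992 with DESeq2, 1784 with no filter, 4830 with the axis, 562 to 2125 with 1 library left out and 425 at an adjusted p under 0.01. The cause was not tested in these cases. With a replicate block, 4 of the 37 genes rose and 4 fell at 44 °C against 37 °C (2557 of all genes called), 0 passed at 40 °C, 3 rose and 5 fell at 44 °C against 40 °C (901 of all genes), and 8 passed the joint test (1656 of all genes). Replicate numbers were not taken to pair libraries, since only 3 of 12 same-numbered pairs correlated over 0.1 (-0.207 to 0.366). As a hint from the data, 6 of 12 libraries correlated best with their own number, so a partial pairing cannot be told from these values. None of the 37 genes had fewer than 1173 counts in a library. Whether more depth would change their calls was not tested.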
